A study of Mus musculus with 8 samples.

Results

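The transcripts of the YAP, TAZ, TEAD and VGLL factors were examined in mouse embryonic fibroblasts (MEFs) with and without the Hippo kinase gene Lats2. The members are 9 genes, Yap1, Wwtr1, Tead1, Tead2, Tead3, Tead4, Vgll2, Vgll3 and Vgll4, and every gene probe of the array whose gene name is one of them was read, whatever its signal. They have 12 of the 41174 gene probes, and 11 of these 12, covering 8 genes, were among the 22642 probes kept for testing, a probe being kept when 2 or more of the 3 extracts of either genotype stood well above background. Wwtr1 is the gene of TAZ, and the array's probe named Taz belongs to tafazzin and was not counted.

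The cells came from 3 litters, numbered 112, 116 and 121, with 1 Lats2-/- and 1 Lats2+/+ littermate extract from each, so that the litter is the replicate (n = 3). All 6 extracts carry the strain name C57BL/6J, were grown in DMEM with fetal bovine serum and antibiotics, and received no treatment. Each extract has a clone name of its own, so a genotype is represented by 1 clone per litter, and embryo age, passage number and the design of the Lats2 allele are not given in the sources used here. Both extracts of a litter were hybridised together to 2-colour arrays with the dyes swapped, on 2 arrays for litters 112 and 116 and on 4 arrays for litter 121. Litters 112 and 116 shared slide 1 and litter 121 was alone on slide 2, so that slide and litter 121 cannot be told apart.

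YAP and TAZ are transcriptional coactivators with no DNA-binding domain of their own. The kinases LATS1 and LATS2 phosphorylate both proteins, which holds them in the cytoplasm or marks them for degradation, and when they are not phosphorylated they enter the nucleus and act through the DNA-binding factors TEAD1 to TEAD4. Vestigial-like (VGLL) proteins bind the same TEAD factors through a Tondu domain and can compete with YAP and TAZ for them. This control acts on the proteins, whereas the arrays read the amount of transcript, and in a bulk extract fewer cells of a type and less RNA per cell cannot be told apart.

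The share of gene probes well above background lay between 52.9% and 61.3% in every channel, no gene spot was saturated, and arrays of the same litter correlated with r between 0.917 and 0.990 across probes, while the mean ratios of different litters correlated with r of 0.13, 0.061 and -0.0013. All 12 fibroblast markers passed the filter, which asks for detection in either genotype, and 9 of them were above background in 16 of 16 channels. Fap was so in 0 of 8 Lats2-/- and 6 of 8 Lats2+/+ channels, Pdgfra in 6 and 8, and Lum in 5 and 6. Lats2 itself had 4 probes. The upstream one (A_52_P425064) was lower in the extract labelled Lats2-/- in every litter, with log2 ratios of -1.33, -1.05 and -0.56 (mean -0.98, limma unadjusted p of 0.00715, adjusted 0.711). The other 3 probes were lower in litters 112 and 116 and were higher in litter 121, by between 0.80 and 1.17 there, so the direction of any difference in litter 121 below rests on a label that 1 of 4 Lats2 probes follows, and values with the sign of litter 121 turned are given beside the counts. Ctgf, Cyr61 and Ankrd1, targets of the pathway described below, had log2 ratios of 1.67, 1.87 and 3.39 in litter 121, of the same sign as in the other litters.

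TEAD factors recognise the sequence CATTCC and its reverse complement GGAATG. RefSeq promoter windows (GRCm38.p6), which run from 250 bases before to 50 bases after a start site and are 300 bases long, were available for 7 of the 9 members in 10 windows, and for neither Tead1 nor Tead4. Of all 32851 windows, 14.7% held the 6 letters on either strand, and of the 27025 genes with a window, 16.6% did. The median GC content of all windows was 52.7%, and the member windows ranged from 61.3% to 75.3%. Whether members hold more matches than other genes was not tested. The windows of Tead2, Tead3 and Vgll3 are shown because, with the litters as labelled, Tead2 was the only member with the same direction in every litter and Vgll3 had the largest spread between litters, and because the Tead3 window held the most matches. Matches on either strand are in capitals, and each window is written 5′ to 3′ along the strand of its gene. They are the windows at chr7:45215542-45215841 (plus strand), chr17:28350551-28350850 (minus strand, the second of 3 Tead3 start sites) and chr16:65814939-65815238 (plus strand).
Tead2: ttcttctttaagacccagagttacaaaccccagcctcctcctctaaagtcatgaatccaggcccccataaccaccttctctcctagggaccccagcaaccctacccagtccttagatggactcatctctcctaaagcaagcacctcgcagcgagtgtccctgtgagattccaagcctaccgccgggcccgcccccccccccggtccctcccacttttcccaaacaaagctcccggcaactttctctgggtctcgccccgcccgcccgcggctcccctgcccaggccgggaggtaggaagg
Tead3: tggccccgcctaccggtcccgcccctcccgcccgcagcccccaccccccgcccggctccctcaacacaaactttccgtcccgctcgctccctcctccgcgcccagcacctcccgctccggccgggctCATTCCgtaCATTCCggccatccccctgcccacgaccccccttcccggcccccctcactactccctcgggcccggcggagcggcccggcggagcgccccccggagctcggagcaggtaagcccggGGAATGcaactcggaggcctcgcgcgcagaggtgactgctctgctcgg
Vgll3: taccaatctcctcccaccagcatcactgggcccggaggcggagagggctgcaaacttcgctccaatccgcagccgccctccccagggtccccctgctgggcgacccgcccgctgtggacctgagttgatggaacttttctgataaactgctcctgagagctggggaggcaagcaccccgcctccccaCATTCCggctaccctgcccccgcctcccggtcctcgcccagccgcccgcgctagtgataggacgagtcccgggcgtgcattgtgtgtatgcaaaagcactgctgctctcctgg
The Tead2 window held no match. The Tead3 window held 3, at positions -123, -114 and 2, counted with the start site as 0, and none of the matches in these windows overlapped. The Vgll3 window held 1, at position -63. Single matches were also found at -182 for the first Tead3 start site, at -141 for Yap1, at -136 for the first of 2 Wwtr1 start sites and at -82 for Vgll4. The second Wwtr1 window overlaps the first and holds the same match, at -170 from its start site. The Vgll2 window and the third Tead3 window held none. A match is a run of letters and not a mapped binding site.

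No member passed the adjusted threshold between Lats2-/- and Lats2+/+ MEFs, and Tead2 was the 1 gene that was higher in the extract labelled Lats2-/- in every litter. None of the 11 kept member probes had an adjusted p under 0.05 in limma, as was the case for 0% of all kept probes, and the smallest adjusted p was 0.711 among members and 0.634 over the array. At an unadjusted p under 0.05, 1 of 11 member probes was called, a probe of Tead2 that was higher in Lats2-/- cells, against 6.84% of all kept probes in either direction and 3.56% in that direction. In terms of direction, 2 of 11 probes, both of Tead2, were higher in Lats2-/- in all 3 litters, against 15.0% of all probes. None of 11 was lower in all 3 litters, against 14.8%. With 11 probes, 1 or 2 calls are close to what these shares amount to. The direction counts depended on the label of litter 121. With the sign of that litter turned, 1 of 11 probes, that of Tead3, was higher in all 3 litters against 12.6% of all probes, and 4 of 11, those of Yap1 and Wwtr1 and the dimmer one of Vgll3, were lower in all 3 against 11.8%, while Tead2 had litters on either side of 0. Of these 4 probes, 2 belong to Wwtr1, and that of Yap1 had a turned value of only -0.0054 in litter 121. With the sign turned, no member probe was called at an unadjusted p under 0.05 in limma, against 4.77% of all probes.

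**Figure D1:**
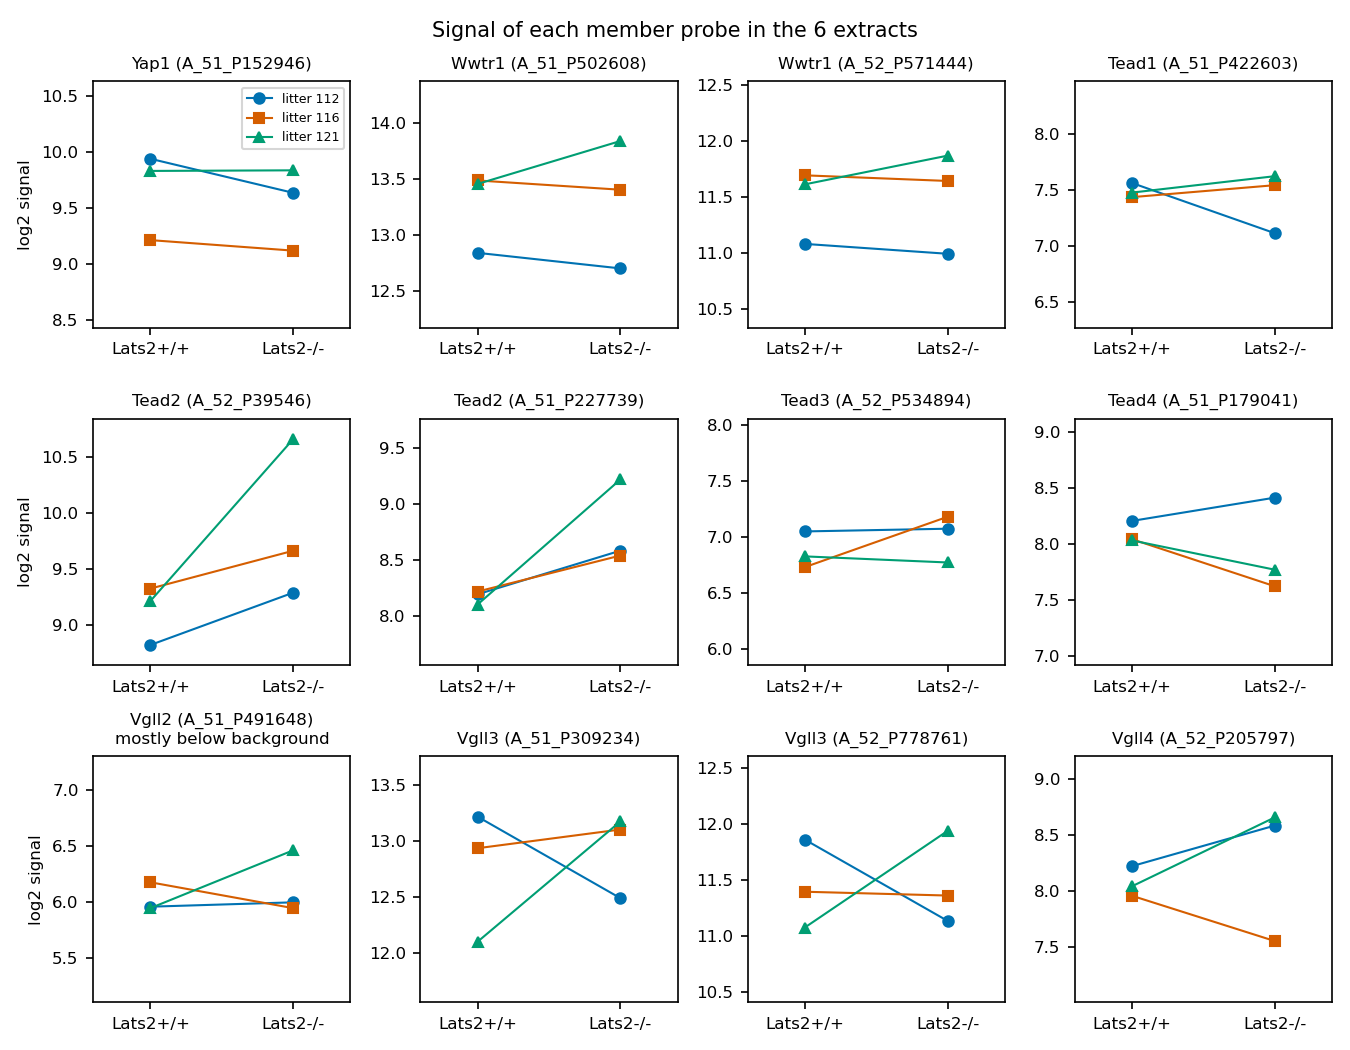
Log2 signal of each of the 12 member probes in the Lats2+/+ and Lats2-/- extract of each litter, with littermates joined by a line. Every vertical axis spans the same number of log2 units, and levels are not comparable between probes. Both Tead2 probes run upward in all 3 litters, whereas the Vgll3 lines cross.

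The coactivator genes Yap1 and Wwtr1 were clearly detected in every extract with mean differences between genotypes that were smaller than their spread over litters. Yap1, the gene of YAP, was read by A_51_P152946 on the minus strand of chromosome 9 (7933061 to 7933120, mm8). Its log2 signals were 9.94, 9.22 and 9.83 for Lats2+/+ in litters 112, 116 and 121 and 9.64, 9.12 and 9.84 in their Lats2-/- littermates. The pair from litter 116 was the lowest, and the genotypes overlapped. The mean log2 ratio of Lats2-/- over Lats2+/+ was -0.13 ± 0.16 (SD, n = 3 litters), with a 95% interval of -0.46 to 0.19 and an adjusted p of 0.827 in limma. Litters differed more than littermates did in Yap1, with a standard deviation of 0.39 over the Lats2+/+ extracts.

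Wwtr1, the gene of TAZ, had 2 probes on the minus strand of chromosome 3. The brighter, A_51_P502608 (57546558 to 57546617), gave log2 signals of 12.84, 13.49 and 13.46 in Lats2+/+ and of 12.70, 13.41 and 13.84 in Lats2-/- cells of the 3 litters. Litter 112 was lowest in both genotypes, and the highest value was that of the litter 121 extract labelled Lats2-/-. The litter ratios were -0.14, -0.08 and 0.38, with a mean of 0.05 ± 0.29 (SD, n = 3), a 95% interval of -0.38 to 0.48 and an adjusted p of 0.953 in limma. The sign of this mean rested on litter 121, without which it was -0.11. The other probe, A_52_P571444, whose match spans 3468 bp (57547017 to 57550484), gave ratios of -0.09, -0.05 and 0.26, and both probes differed by at most 0.13 in any litter.

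Among the DNA-binding partners, Tead2 was higher in the Lats2-/- extract in each litter, and Tead1, Tead3 and Tead4 had litters on either side of 0. Tead2, which is known for its expression in the early embryo and in neural precursors, had 2 probes on the plus strand of chromosome 7. The brighter, A_52_P39546 (45101486 to 45101545), read 8.82, 9.33 and 9.22 on the log2 scale in Lats2+/+ and 9.29, 9.67 and 10.66 in Lats2-/- cells of litters 112, 116 and 121. Each Lats2-/- extract was above its littermate, but the one from litter 112 was below the Lats2+/+ extract of litter 116, so that the groups overlapped. The litter 121 extract labelled Lats2-/- stood 1.84 above the lowest extract and was the highest of the 6.

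The Tead2 ratios were 0.47, 0.34 and 1.45, that is 1.38-fold, 1.26-fold and 2.73-fold higher. Their mean was 0.75 ± 0.61 (SD, n = 3 litters; 1.68-fold; -0.21 with the sign of litter 121 turned), with a 95% interval of -0.012 to 1.51 and limma p-values of 0.0523 before and 0.711 after adjustment. The second probe, A_51_P227739 (45100284 to 45100343), read 8.19, 8.22 and 8.10 in Lats2+/+ and 8.58, 8.54 and 9.22 in Lats2-/- cells. Here all 3 Lats2-/- extracts lay above all 3 Lats2+/+ extracts, which had a standard deviation of 0.06. Its ratios were 0.39, 0.32 and 1.12 (mean 0.61 ± 0.44, SD, n = 3), with a 95% interval of 0.03 to 1.19 and limma p-values of 0.0443 before and 0.711 after adjustment. With the sign of litter 121 turned, its mean was -0.14 ± 0.85 (SD, n = 3). The 2 probes differed by 0.33 in litter 121 and by less in the other litters.

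On single arrays both Tead2 probes were higher in the channel labelled Lats2-/- on 8 of 8 arrays, and on 4 of 8 with the sign of litter 121 turned. The ratios ran from 0.15 to 1.64 for A_52_P39546 and from 0.30 to 1.20 for A_51_P227739. The brighter probe depended more on the dye, with a gap of up to 0.38 between orientations against 0.06 for the other. In litter 116 its ratio was 0.52 with the Lats2-/- extract in Cy5 and 0.15 with it in Cy3. Without litter 121 the mean ratio of the brighter probe, then from slide 1 only, was 0.40, with an adjusted p of 0.734 in limma, and over all alternatives run its adjusted p lay between 0.0536 and 1. With slide as a random block over the 8 arrays, which counts the arrays of a litter as separate data, the mean was 0.92 for this probe (adjusted p of 0.0536 in limma) and 0.74 for A_51_P227739 (adjusted p of 0.027 in limma), and slide 2 held the 1 litter with the largest ratio.

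**Figure D2:**
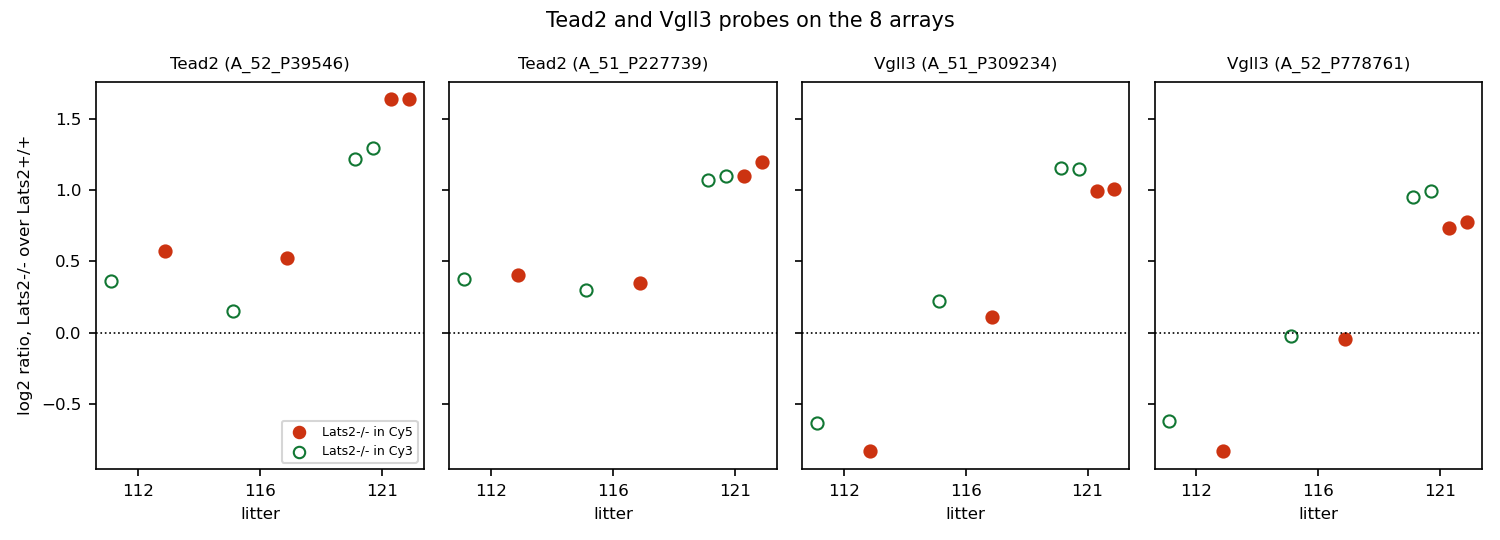
Log2 ratio of Lats2-/- over Lats2+/+ on each of the 8 arrays, by litter, for the 2 Tead2 and the 2 Vgll3 probes, with filled points for arrays where the Lats2-/- extract was in Cy5 and open points for Cy3. All Tead2 points lie above 0, and the Vgll3 points of a litter lie together while the litters lie apart.

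Other transcripts differed in litter 121 too, in either direction, and the values of the cell type markers are as follows. The summed signal of all 8 macrophage and blood markers, of which 4 were kept, was 9.72 in Lats2+/+ and 11.96 in the littermate labelled Lats2-/- on the log2 scale, where the Lats2+/+ extracts ranged from 9.43 to 9.72 and the Lats2-/- extracts from 9.50 to 11.96, while Ptprc, Emr1, Itgam and Tyrobp were not kept. In litter 121 the kept marker Lyz2 had a log2 ratio of 3.40, whereas Cd68, Csf1r and Hbb-b1 were at -0.16, -0.08 and -0.05. The summed signal of all 7 neural markers, of which 3 were kept, was 11.09 and 13.11, within ranges of 9.99 to 11.09 in Lats2+/+ and of 10.09 to 13.11 in Lats2-/-, and Sox2, Gfap, Elavl3 and Stmn2 were not kept. Nes had a ratio of 4.10 in litter 121, whereas Tubb3 and Map2 were at 0.40 and -0.09. The 12 fibroblast markers had a median ratio of -1.47 in litter 121, against 0.14 and 1.95 in litters 112 and 116, and their summed signal ranged from 18.51 to 19.26 in Lats2+/+ and from 17.94 to 19.22 in Lats2-/- cells. Of 7 epithelial markers only Krt19 was kept (log2 ratios of 2.42, 0.37 and 1.83, unadjusted p of 0.0284 and adjusted p of 0.711 in limma), and of 6 endothelial markers only Tek. As labelled, 6.84% of all kept probes had an unadjusted p under 0.05 in limma. Krt19 was not called with the sign of litter 121 turned (mean 0.32 ± 2.13, SD, n = 3). Under that turn 3 of the 12 fibroblast markers, Col3a1, Pdgfrb and Dcn, were higher at an unadjusted p under 0.05 in limma. The share of all kept probes called there was 4.77%, and none of these 3 passed at an adjusted p. The part of these differences in the Tead2 values was not tested.

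Tead1, the TEAD gene with a broad expression that includes heart and skeletal muscle, was read by A_51_P422603 on the plus strand of chromosome 7 (112690667 to 112690726). Its log2 signals were 7.56, 7.44 and 7.48 in Lats2+/+ and 7.11, 7.54 and 7.62 in Lats2-/- cells. The Lats2-/- extract of litter 112 was the lowest, and the other 5 extracts lay close together. The mean log2 ratio was -0.07 ± 0.33 (SD, n = 3), with a 95% interval of -0.54 to 0.41 and an adjusted p of 0.949 in limma. It was 0.13 without litter 112.

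Tead3, a family member known from placenta, was read by A_52_P534894 on the minus strand of chromosome 17 (28060366 to 28060542, a span of 177 bp). The log2 signals were 7.05, 6.73 and 6.83 in Lats2+/+ and 7.07, 7.18 and 6.77 in Lats2-/- cells. The genotypes overlapped, and the ratio of 0.45 in litter 116 stood apart from 0.02 and -0.05 in litters 112 and 121. Averaged over litters it came to 0.14 ± 0.27 (SD, n = 3; 95% interval of -0.28 to 0.56, adjusted p of 0.854 in limma), and -0.015 without litter 116.

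Tead4, which is required for the trophectoderm lineage of the blastocyst, was read by A_51_P179041 on the minus strand of chromosome 6 (128192978 to 128193037). It gave 8.20, 8.04 and 8.03 on the log2 scale in Lats2+/+ and 8.41, 7.62 and 7.77 in Lats2-/- cells. Lats2-/- cells were higher in litter 112 and lower in the other 2 litters. The mean log2 ratio was -0.16 ± 0.33 (SD, n = 3), with a 95% interval of -0.63 to 0.31 and an adjusted p of 0.854 in limma.

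**Figure D3:**
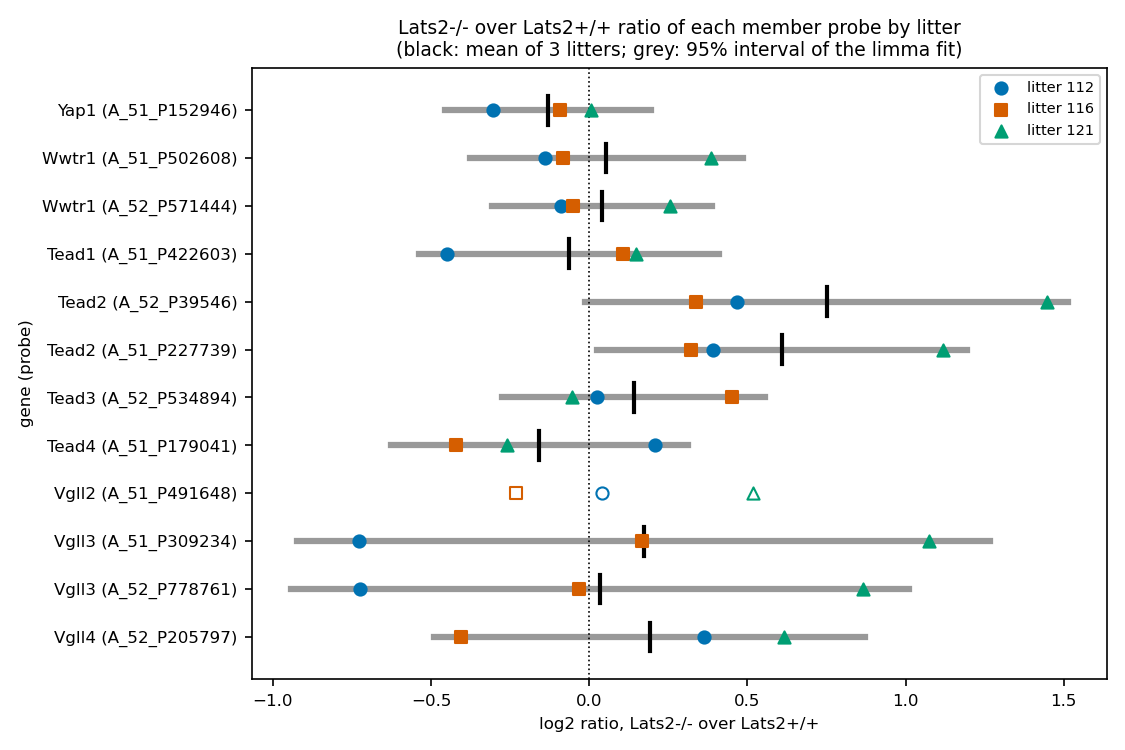
Log2 ratio of Lats2-/- over Lats2+/+ for each member probe in litters 112, 116 and 121 (points), with the mean of the 3 litters (black) and the 95% interval of the limma fit (grey). Open points mark Vgll2, which was not tested, and the interval of 1 probe, Tead2 A_51_P227739, lies wholly above 0.

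Of the VGLL cofactors, Vgll3 had the largest spread between litters of all members as labelled, Vgll4 also changed sign between litters, and Vgll2 was at background in 5 of 6 extracts. Vgll3, a cofactor that binds TEAD factors through its Tondu domain, had 2 probes on the plus strand of chromosome 16. The brighter, A_51_P309234 (65779802 to 65779861), gave log2 signals of 13.22, 12.94 and 12.10 in Lats2+/+ and of 12.49, 13.10 and 13.18 in Lats2-/- cells of litters 112, 116 and 121. The order of the litters in one genotype was the reverse of that in the other. In the 3 litters the ratios came to -0.73, 0.17 and 1.07, that is 0.604-fold in litter 112 and 2.11-fold in litter 121. Their average was 0.17 ± 0.90 (SD, n = 3; 95% interval of -0.92 to 1.27, adjusted p of 0.944 in limma), and it was -0.28 without litter 121. With the sign of litter 121 turned, the SD over litters was 0.64 for this probe and 1.07 for the brighter Tead2 probe, which then had the largest spread.

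The second Vgll3 probe, A_52_P778761 (65784513 to 65784572), gave ratios of -0.73, -0.03 and 0.86, with a mean of 0.03 ± 0.80 (SD, n = 3) and an adjusted p of 0.988 in limma. It differed from the first by at most 0.21 in a litter. Repeat arrays of the same extracts, which measure technical error only, had a standard deviation of 0.10 for the first probe. A litter SD as large as that of the first probe or larger was found in 7.30% of all kept probes.

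Vgll4, which encodes a TEAD binding protein that opposes YAP, was read by A_52_P205797 on the minus strand of chromosome 6 (114886951 to 114887010). Its log2 signals were 8.23, 7.96 and 8.05 in Lats2+/+ and 8.59, 7.56 and 8.66 in Lats2-/- cells. The Lats2+/+ extracts lay within the range of the Lats2-/- extracts, which held both the lowest and the highest value. Its litter ratios were 0.36, -0.40 and 0.62, with a mean of 0.19 ± 0.53 (SD, n = 3; 95% interval of -0.49 to 0.87, adjusted p of 0.880 in limma), and without litter 121 the average ratio was -0.021.

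Vgll2, a cofactor of skeletal muscle, was read by A_51_P491648 on the plus strand of chromosome 10 (51716496 to 51716555). It was not well above background in any Lats2+/+ channel and was so in 4 of 8 Lats2-/- channels, which were those of litter 121. The log2 signals were 5.96, 6.17 and 5.94 in Lats2+/+ and 6.00, 5.94 and 6.46 in Lats2-/- cells. In litter 121 the extract labelled Lats2-/- was 1.35-fold above the dimmest signal that counted as well above background, or the probe's own Lats2+/+ signal where higher. This is not a strict bound, since a Lats2+/+ channel of this probe in litter 121 read 6.14 without counting as well above background. No fold is given for the other litters. The probe did not pass the filter and was not tested. Of 10 skeletal muscle markers, 8 were not kept, Myod1, Myog, Myf5, Myf6, Des, Ckm, Myh3 and Pax7, the kept Acta1 and Actc1 had log2 ratios of -0.47, 3.48 and 0.35 and of -0.41, 3.37 and 0.55 in the 3 litters, and the summed signal of all 10 ranged from 11.43 to 15.07 in Lats2+/+ and from 13.95 to 15.57 in Lats2-/- cells.

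Taken by litter, the 8 member genes with a kept probe, each read by its brightest one, had median log2 ratios of -0.06, 0.01 and 0.27 in litters 112, 116 and 121. Over all kept probes the medians were 0.0051, 0.00072 and -0.0015. Members were higher in Lats2-/- cells in 4, 4 and 6 of 8 cases, and with its sign turned litter 121 had 2 of 8 higher and a median of -0.27. A difference of 2-fold or more was seen for none of 8 in litters 112 and 116 and for 2 of 8, Tead2 and Vgll3, in litter 121, against 3.77%, 7.71% and 6.09% of all kept probes. With the litters as labelled, the median of the mean ratios was 0.10 for the members and 0.01 for all probes, and the median standard deviation between litters was 0.33 and 0.25. With the sign of litter 121 turned, the mean ratios of these genes ran from -0.55 (Vgll3) to 0.18 (Tead3), and only those of Tead3 and Tead4 were above 0.

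Across the 6 extracts the levels of different members followed no common order. Pearson's r between members, given as a description over 6 extracts that share arrays and litters, ran from -0.80 (Wwtr1 with Tead4) to 0.74 (Wwtr1 with Tead2). For Tead2, the member with the widest range, the probes of other genes with the most similar levels over the 6 extracts were those of Zfp354a (r of 0.999), Mdfic (0.998), Sema3c (0.986), Atp6v0e2 (0.984) and Qser1 (0.981). In all 5 of these the litter 121 extract labelled Lats2-/- was the highest, as in Tead2, which comes with their choice by r and is no separate result. Of 22640 other kept probes, 269 reached an r of 0.9 with Tead2.

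The genes around these factors in the pathway were read in the same fit, and none passed the adjusted threshold. Counts at an unadjusted p are to be read against the 6.84% of all kept probes called there, and the counts for kinases, binders and partners lie near that share. Of 20 Hippo kinases and upstream regulators, 1 was higher and 1 lower at an unadjusted p under 0.05, with a list median of 0.10. Frmd6, a FERM domain protein upstream of the kinases, was higher (0.41 ± 0.26, SD, n = 3; unadjusted p of 0.0480 and adjusted p of 0.711 in limma). Rassf1, a scaffold that binds the MST kinases, was lower (-0.35 ± 0.06, SD, n = 3; unadjusted p of 0.0253 and adjusted p of 0.711 in limma). Of 15 binders that hold YAP and TAZ or lead to their degradation, 1 was higher, Amot, an angiomotin that retains YAP outside the nucleus, with a log2 ratio of 0.88 ± 0.56 (SD, n = 3; unadjusted p of 0.0268 and adjusted p of 0.711 in limma), and the list median was 0.05. Of 18 other partners of YAP, TAZ or TEAD, 16 were kept and 2 were higher at an unadjusted p, the TGF-beta mediator Smad2 (0.42 ± 0.16, SD; unadjusted p of 0.0242) and the serum response factor gene Srf (0.46 ± 0.27, SD; unadjusted p of 0.0382), both with an adjusted p of 0.711 in limma. Vgll1 and Tbx5 were the partners not kept, and the median of the list was 0.17. With the sign of litter 121 turned, none of Frmd6, Rassf1, Amot, Smad2 and Srf kept an unadjusted p under 0.05. In their place 1 of the 20 kinases and regulators was higher (Dchs1) and 2 were lower (Lats2 and Wwc1), none of the 15 binders was called, and 1 of 16 partners was higher (Ncoa1), against 4.77% of all kept probes. The Lats2 call follows from the turn itself, which was made because Lats2 probes went against the label. The list medians were then 0.02 for kinases and regulators, -0.13 for binders and 0.12 for partners.

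Of 22 listed targets of YAP, TAZ and TEAD, 4 were higher and 1 lower at an unadjusted p under 0.05, against 6.84% of all kept probes in either direction. Ctgf, a secreted matricellular protein and textbook YAP target, had ratios of 1.55, 1.18 and 1.67 (mean 1.47 ± 0.26, SD, n = 3; unadjusted p of 0.000624 and adjusted p of 0.634 in limma). Cyr61, of the same family, had a mean of 1.35 ± 0.61 (SD; adjusted p of 0.711 in limma). Ankrd1, a nuclear ankyrin repeat protein, had ratios of 3.03, 4.82 and 3.39 (mean 3.75 ± 0.95, SD; adjusted p of 0.634 in limma). F3, the tissue factor gene, had a mean of 1.01 ± 0.72 (SD; adjusted p of 0.711 in limma), and Dock5, a guanine nucleotide exchange factor, one of -0.91 ± 0.71 (SD; adjusted p of 0.711 in limma). The median of the list was -0.11, 0.24 and 0.30 in litters 112, 116 and 121, so the middle of the list lay below 0 in litter 112. With the sign of litter 121 turned, none of these 5 targets kept an unadjusted p under 0.05, and Ctgf, Cyr61 and Ankrd1 had means of 0.35 ± 1.76, 0.11 ± 1.76 and 1.49 ± 4.32 (SD, n = 3). Under the same turn 3 other genes of the 22 were called, 1 higher (Foxf2) and 2 lower (Crim1 and Lats2), against 4.77% of all kept probes. The Lats2 probe is the one also listed among the kinases, and its call follows from the turn. The median of the mean ratios of the 22 targets was 0.23 as labelled and 0.066 with the sign turned. Of 15 proliferation genes, the mitotic cyclin Ccnb2 was lower at an unadjusted p of 0.0124 (-0.46 ± 0.10, SD; adjusted p of 0.711 in limma), and the medians of the list were -0.58, -0.55 and 0.32. Ccnb2 was no longer called with the sign of litter 121 turned, and 11 other genes of the 15 were lower at an unadjusted p under 0.05, against 4.77% of all kept probes, none of them at an adjusted one.

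**Figure D4:**
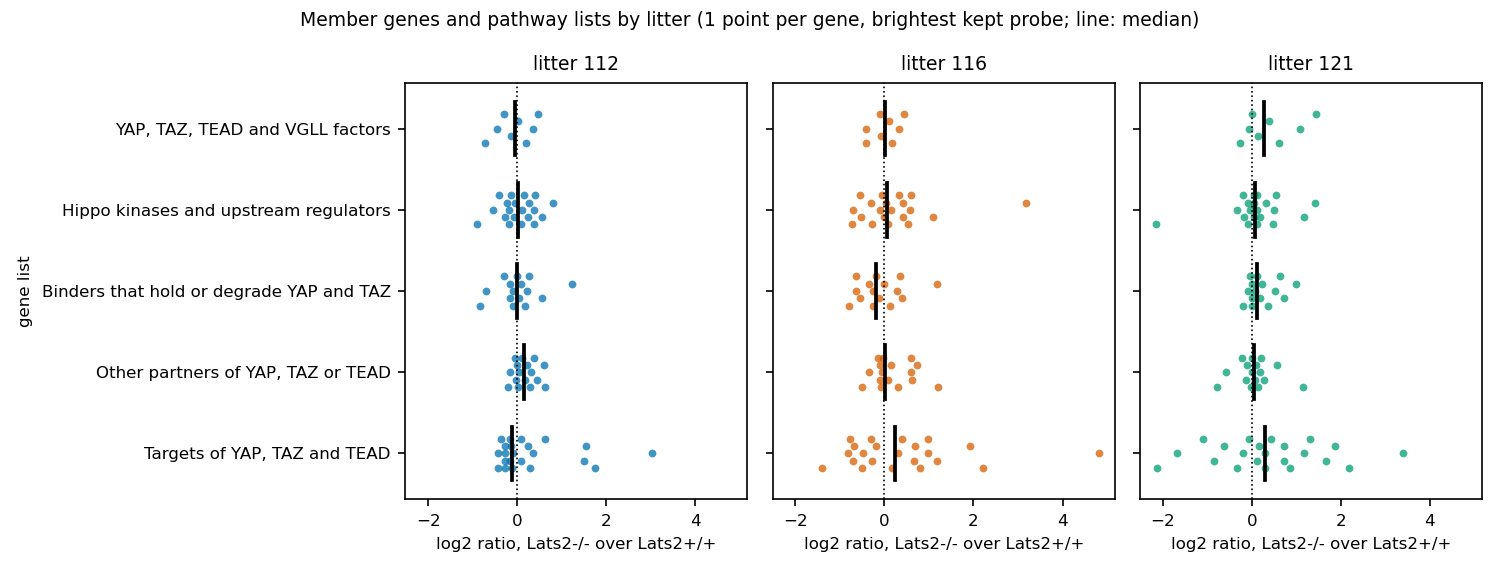
Log2 ratio of Lats2-/- over Lats2+/+ in each litter for the 8 member genes and for 4 pathway lists, with 1 point per gene at its brightest kept probe and a line at the median. Member medians lie at -0.06, 0.01 and 0.27, and single targets lie far to the right in every litter.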

How the data were processed

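Extracts were compared on Agilent array design 14868, whose probes are 60 bases long. The authors extracted the scans with Agilent Feature Extraction (10.7.3.1 per the file headers, 10.5.1.1 in the submitters' processing notes). The deposited scanner files give each spot's mean intensity and local background intensity per channel, not normalized, and other columns flag spots well above background, saturated or outliers. The deposited processed intensity values and the log10 ratio made from them were already background subtracted and dye normalized. The deposited value table holds the same log10 ratio as Lats2-/- over Lats2+/+, within 0.005 of the scanner files once dye swaps were turned.

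Here, mean intensities were background corrected (normexp, offset 50) and loess normalized within arrays in limma 3.58.1 (R 4.3.3), with control spots and 860 outlier spots at weight 0. Log2 ratios were turned to Lats2-/- over Lats2+/+, and repeat spots and then the arrays of a litter were averaged. Genotypes are paired within litter and array, as the labels give them. Log2 signals per extract were taken after Aquantile scaling, and summed signals add the linear signals of a list. The 3 litter ratios were tested against 0 with lmFit and eBayes (two-sided), with Benjamini-Hochberg adjustment over 22642 kept probes at a threshold of 0.05. A probe was kept if well above background in at least 2 of 3 extracts of a genotype, an extract needing the majority of its arrays. A gene is given by its brightest kept probe, with its other probes beside it. Precision is limited by how many litters and arrays there are. The script was tested on simulated data.

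The members and gene lists were chosen with earlier results of these data known. Named genes are all members, Lats2, Ctgf, Cyr61, Ankrd1, every list gene below 0.05 in unadjusted p, and the 5 probes most correlated with the member of widest range. Marker and partner genes named beside them, such as Lyz2, Nes, Acta1 or genes not kept, fall outside this rule and were chosen after their values were seen. Gene lists for the Hippo pathway, partners, targets, proliferation and cell types were described by counts and medians with no set test. Probe coordinates are mm8 per the file headers, and promoter windows are RefSeq's on GRCm38.p6. No probe sequence was used here. Alternatives were other background corrections and offsets, processed signals, the value table, median centring, other filters, the methods' t-test, fits without the litter pairing or with slide or litter as a block, and each litter left out. Keeping outlier spots in the loess curve and turning the sign of litter 121 were added after seeing the data.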

Additional observations from a re-analysis of the deposited data

How the results depend on the processing

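The count of member probes past the adjusted threshold stayed at 0 under every alternative except slide as a random block, which treats the arrays as separate data and called 1 member probe, of Tead2, and 717 of all probes. The count at an unadjusted p under 0.05, which was 1, became 2 with a normexp offset of 16, the strict filter, the slide block and the litter block with a dye term, and 0 with the processed signals, the deposited value table, median centring, no filter and the methods' t-test. It was 0 without litter 112 or 121 and 1 without litter 116, where the called probe was that of Vgll4 (limma p of 0.0468) and not of Tead2. Without the pairing of littermates (no replicate block) it was 1, and 554 probes of the array were called in place of 1549. Over the whole array, the litter block with a dye term called 203 probes at an adjusted p under 0.05 and 2853 unadjusted. Tead2 kept its direction in 16 of 17 alternatives, its second probe among them, between 0.40 and 0.96, with an unadjusted p under 0.05 in 5 of them. The exception was turning the sign of litter 121, chosen after seeing the data, which gave no member call at either threshold (0 in place of 1 unadjusted) and reversed Tead2 to -0.21, Wwtr1 to -0.20, Tead4 to 0.016, Vgll3 to -0.55 and Vgll4 to -0.22. Wwtr1 turned to -0.011 with median centring. On leaving out a litter, the mean log2 ratio ran from -0.11 to 0.15 for Wwtr1, from -0.17 to 0.13 for Tead1, from -0.015 to 0.24 for Tead3, from -0.28 to 0.62 for Vgll3 and from -0.021 to 0.49 for Vgll4, so the sign of each rested on 1 litter. The range was -0.20 to -0.044 for Yap1, which kept its sign under every alternative run, and -0.34 to -0.027 for Tead4, which kept its sign except when litter 121 was turned. Dim signals limit Vgll2, for which the arrays give only an approximate fold in litter 121.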
